A study of Mus musculus with 8 samples.

Results

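The 9 genes described here encode the subunits of the AMPA and kainate types of ionotropic glutamate receptor. They were taken by gene symbol, as the entries of the deposited count table named Gria1 to Gria4 and Grik1 to Grik5. They are 4 AMPA and 5 kainate subunit genes of 54532 genes listed. All 9 passed edgeR's filterByExpr, as did 17195 genes in all. RNA came from the cortex of 8 C57BL/6 mice at 8 months of age, with 1 library per mouse. The 4 PS19 mice (m677, m668, m665 and m659) carried a transgene for human tau of the 1N4R isoform with the P301S mutation, under the mouse prion protein promoter. The 4 Adrb1+/m;PS19 mice (m671, m661, m660 and m658) carried that transgene and 1 knock-in copy of Adrb1-A187V, a mutation of the β1-adrenergic receptor made with CRISPR/Cas9. The comparison asks how the receptor mutation alters cortical gene expression in a tauopathy model, and every group used here bore the tau transgene. The animals were housed singly on a 12-h light and 12-h dark cycle. The methods state that males and littermate controls were used unless otherwise noted, but the labels give no litter.

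AMPA receptors are tetramers that open within milliseconds of glutamate binding and carry most fast excitatory transmission in the cortex. Their subunit makeup sets calcium permeability and trafficking, and TARPs, cornichons and other auxiliary proteins shape their gating. Kainate receptors are also tetramers. GluK1, GluK2 and GluK3 (Grik1, Grik2 and Grik3) can form channels by themselves, whereas GluK4 and GluK5 (Grik4 and Grik5) need one of these partners. Kainate receptors act both presynaptically and postsynaptically, on principal cells and on interneurons, and Neto1 and Neto2 are their auxiliary subunits.

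The members share a short stretch of coding sequence in the pore loop that holds the Q/R site, a glutamine codon that ADAR enzymes recode to arginine in transcripts of Gria2, Grik1 and Grik2. Of these stretches 7, each 30 bases within 1 exon of GRCm38, are shown. They are those of the recoded genes and, for comparison, of Gria1, Gria3, Gria4 and Grik3. The capitals mark the genomic Q/R codon, found as the first glutamine codon after the methionine codon of the loop, and each line reads 5′ to 3′ on the strand of the gene.
Gria1 (chr11:57243070-57243099, plus strand, exon 11 of 16): tggttctcgctgggggccttcatgCAGcaa
Gria2 (chr3:80706908-80706937, minus strand, exon 11 of 16): tggttttccttgggtgcctttatgCAGcaa
Gria3 (chrX:41610241-41610270, plus strand, exon 11 of 16): tggttttccttgggtgcttttatgCAGcaa
Gria4 (chr9:4464134-4464163, minus strand, exon 12 of 17): tggttttccctgggtgcctttatgCAAcaa
Grik1 (chr16:87940539-87940568, minus strand, exon 12 of 17): tggtttggcgttggagctctcatgCAGcaa
Grik2 (chr10:49244326-49244355, minus strand, exon 13 of 17): tggtttggagttggagctctcatgCAGcaa
Grik3 (chr4:125691183-125691212, plus strand, exon 12 of 16): tggtttggaatgggctccctgatgCAGcaa
The codon reads CAG in 8 members and CAA in 1, Gria4, and both spell glutamine, so this codon by itself does not set the edited genes apart. Over all 36 pairs of members, AMPA stretches differed from each other at 1 to 6 of 30 bases and kainate stretches at 1 to 11. The closest pairs, each with 1 difference, were Gria2 with Gria3 and Grik1 with Grik2. Counts per gene show neither the share of edited transcripts nor the flip and flop splice forms.

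The libraries held between 14653222 and 21223754 counts in PS19 mice and between 16865651 and 20802158 in Adrb1+/m;PS19 mice, and TMM factors lay between 0.990 and 1.01. Of the 17195 genes tested, 481 (2.80%) had an unadjusted p under 0.05 in edgeR's quasi-likelihood test, the selection threshold of the study. Of them 245 (1.42%) were higher and 236 (1.37%) lower in Adrb1+/m;PS19 mice, and 348 of all genes tested (2.02%) had normalised counts that did not overlap between genotypes. None had an adjusted p under 0.05 from edgeR's quasi-likelihood test or from DESeq2's Wald test, where the smallest adjusted p was 0.9996 and 0.110. With no filter on low counts, 66 of 33614 genes had an adjusted p under 0.05 from edgeR, none of them a subunit gene. Genes that mark cortical excitatory neurons, such as Slc17a7, were detected in every library. Slc17a7 had 1143 ± 114 CPM in PS19 and 1005 ± 78.7 CPM in Adrb1+/m;PS19 mice (SD, n = 4 each). Its log2 fold change was -0.19 (SE 0.07), with an unadjusted p of 0.0217 in edgeR's quasi-likelihood test. The mutated gene, Adrb1, differed by -0.07 on the log2 scale (SE 0.09), and counts per gene do not tell its mutant from its wild-type allele. Levels are given as CPM, counts scaled to library size with the TMM factors, and every log2 fold change is of Adrb1+/m;PS19 over PS19 mice.

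All 9 subunit genes were expressed in every cortex, from 227 counts for Grik1 in PS19 mouse m668 up to 17082 for Gria2. Scaled to the table's gene length, the level ran from 63.9 ± 3.79 CPM per kb for Gria1 (SD, n = 8 mice) to 2.49 ± 0.347 for Grik1. Gria2 at 48.1 ± 2.32 and Grik5 at 42.2 ± 1.77 CPM per kb followed Gria1. Below these came Gria3 at 27.9, Gria4 at 19.9, Grik3 at 15.9, Grik2 at 6.23 and Grik4 at 3.86 CPM per kb. Each neighbouring pair in this order kept its order in 8 of 8 mice, and the ranges of neighbours did not overlap.

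The order of 2 pairs depended on the length used. The table's length counts all exons of a gene, and for Gria2 it is 15548 bases, against 10371 for its longest coding transcript. With the length of the longest coding transcript, a choice made after the data were seen, Gria2 (72.1 ± 3.47 CPM per kb) lay above Gria1 (69.6 ± 4.13), in 5 of 8 mice and with overlapping ranges. Grik1 (4.59 ± 0.637) then lay above Grik4 (3.91 ± 0.286), in 7 of 8 mice. Grik5 and Gria3 also overlapped on that scale, at 58.0 ± 2.43 and 53.0 ± 4.01 CPM per kb. Grik5 remained the most abundant kainate subunit with either length.

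**Figure D1:**
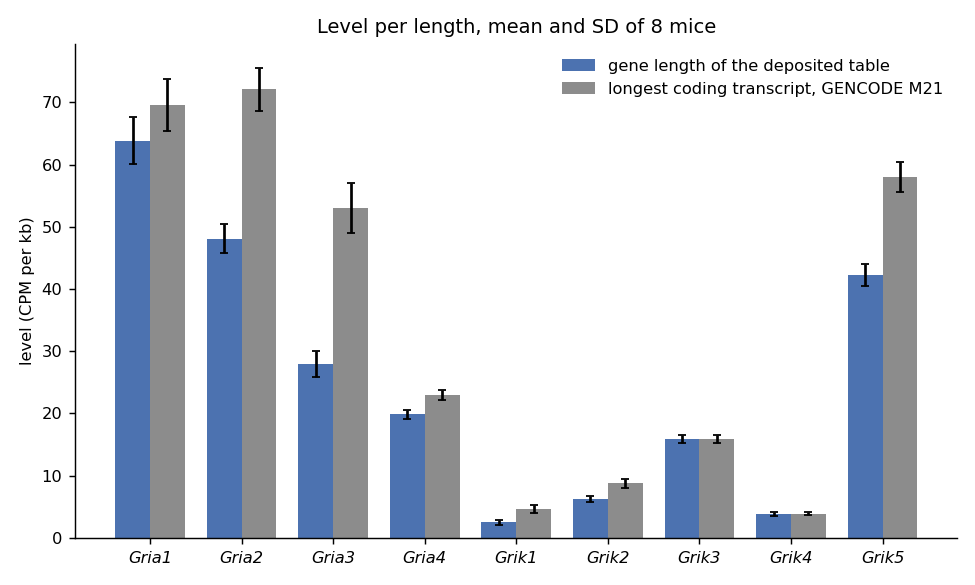
Level per length of the 9 subunit genes (CPM per kb, y axis from 0), as the mean of 8 mice with SD, with the table's gene length (blue) and with the longest coding transcript (grey). Gria1 is highest with the first length at 63.9 CPM per kb, and Gria2 with the second at 72.1.

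The AMPA subunits summed to 160 ± 5.42 CPM per kb and the kainate subunits to 70.7 ± 2.26 (SD, n = 8), a ratio of 2.26 ± 0.113. Within the AMPA family, Gria1, whose subunit GluA1 is central to activity-dependent insertion at synapses, made up 40.0% ± 1.91. Gria2, whose edited subunit limits calcium entry, made up 30.1% ± 1.06. Gria3 held 17.5% ± 0.928 and Gria4 12.4% ± 0.574. Within the kainate family, Grik5 alone held 59.7% ± 0.787 and Grik3 22.5% ± 0.662, ahead of Grik2 at 8.82% ± 0.837, Grik4 at 5.45% ± 0.351 and Grik1 at 3.52% ± 0.434. The GluK4 and GluK5 genes together accounted for 65.2% ± 0.842 of the kainate family. These shares are of RNA per length, and the makeup of receptor proteins was not measured. The ratio of AMPA to kainate subunits spanned 2.12 to 2.39 in PS19 mice and 2.15 to 2.37 in Adrb1+/m;PS19 mice, so the genotypes overlapped almost entirely.

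**Figure D2:**
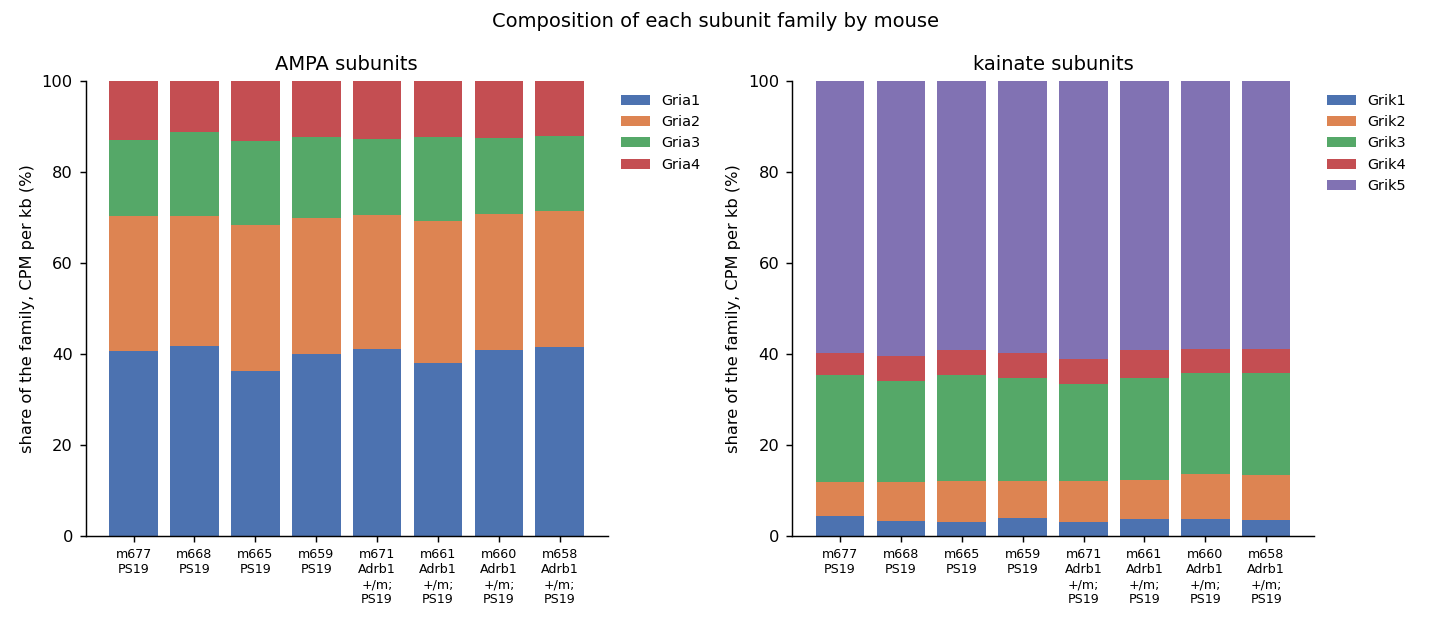
Share of each subunit gene in its family (percent of the summed CPM per kb), 1 bar per mouse, for AMPA (left) and kainate subunits (right). Gria1 holds 36.2 to 41.7% of the AMPA family in every mouse, and Grik5 59.0 to 61.2% of the kainate family.

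The AMPA subunits overlapped between the genotypes, and none of the 4 had an unadjusted p under 0.05. Gria1 (ENSMUSG00000020524, chromosome 11, 57011387 to 57330244) had 374, 424, 353 and 376 CPM in PS19 mice m677, m668, m665 and m659, and 386, 374, 387 and 414 in Adrb1+/m;PS19 mice m671, m661, m660 and m658. Its highest and its lowest mouse were both PS19. Gria2 (ENSMUSG00000033981, chromosome 3, 80681450 to 80802835) had 709, 749, 806 and 726 CPM in PS19 mice and 711, 786, 728 and 770 in Adrb1+/m;PS19 mice, in the same order of mice. The genotype ranges of Gria2 lay almost on top of each other, and its group means were 748 ± 42.4 and 749 ± 35.0 CPM (SD, n = 4 each).

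Gria3 (ENSMUSG00000001986, X chromosome, 41400854 to 41678601) encodes GluA3, which pairs mainly with GluA2 in cortical synapses. It had 250.2, 304, 295 and 275 CPM in PS19 mice and 257, 295, 255 and 268 in Adrb1+/m;PS19 mice. Gria4 (ENSMUSG00000025892, chromosome 9, 4417896 to 4796234), which is prominent in parvalbumin interneurons, had 125, 119.9, 134 and 121 CPM in PS19 mice and 124, 127, 124 and 127 in Adrb1+/m;PS19 mice. Both genotypes overlapped for each of these genes, and Gria4 varied least of all 9 members over the 8 mice, with a coefficient of variation of 3.46%. The log2 fold changes were 0.03 (SE 0.06) for Gria1, 0.0019 (SE 0.05) for Gria2, -0.06 (SE 0.07) for Gria3 and 0.0066 (SE 0.05) for Gria4, with unadjusted p of 0.60, 0.972, 0.371 and 0.899 in edgeR's quasi-likelihood test. The 95% intervals of the 4 AMPA subunits lay between folds of 0.867 and 1.12, and differences within these intervals could not be resolved with 4 mice per genotype. In whole cortex, a different number of cells of a type and a different amount of RNA per cell cannot be told apart.

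**Figure D3:**
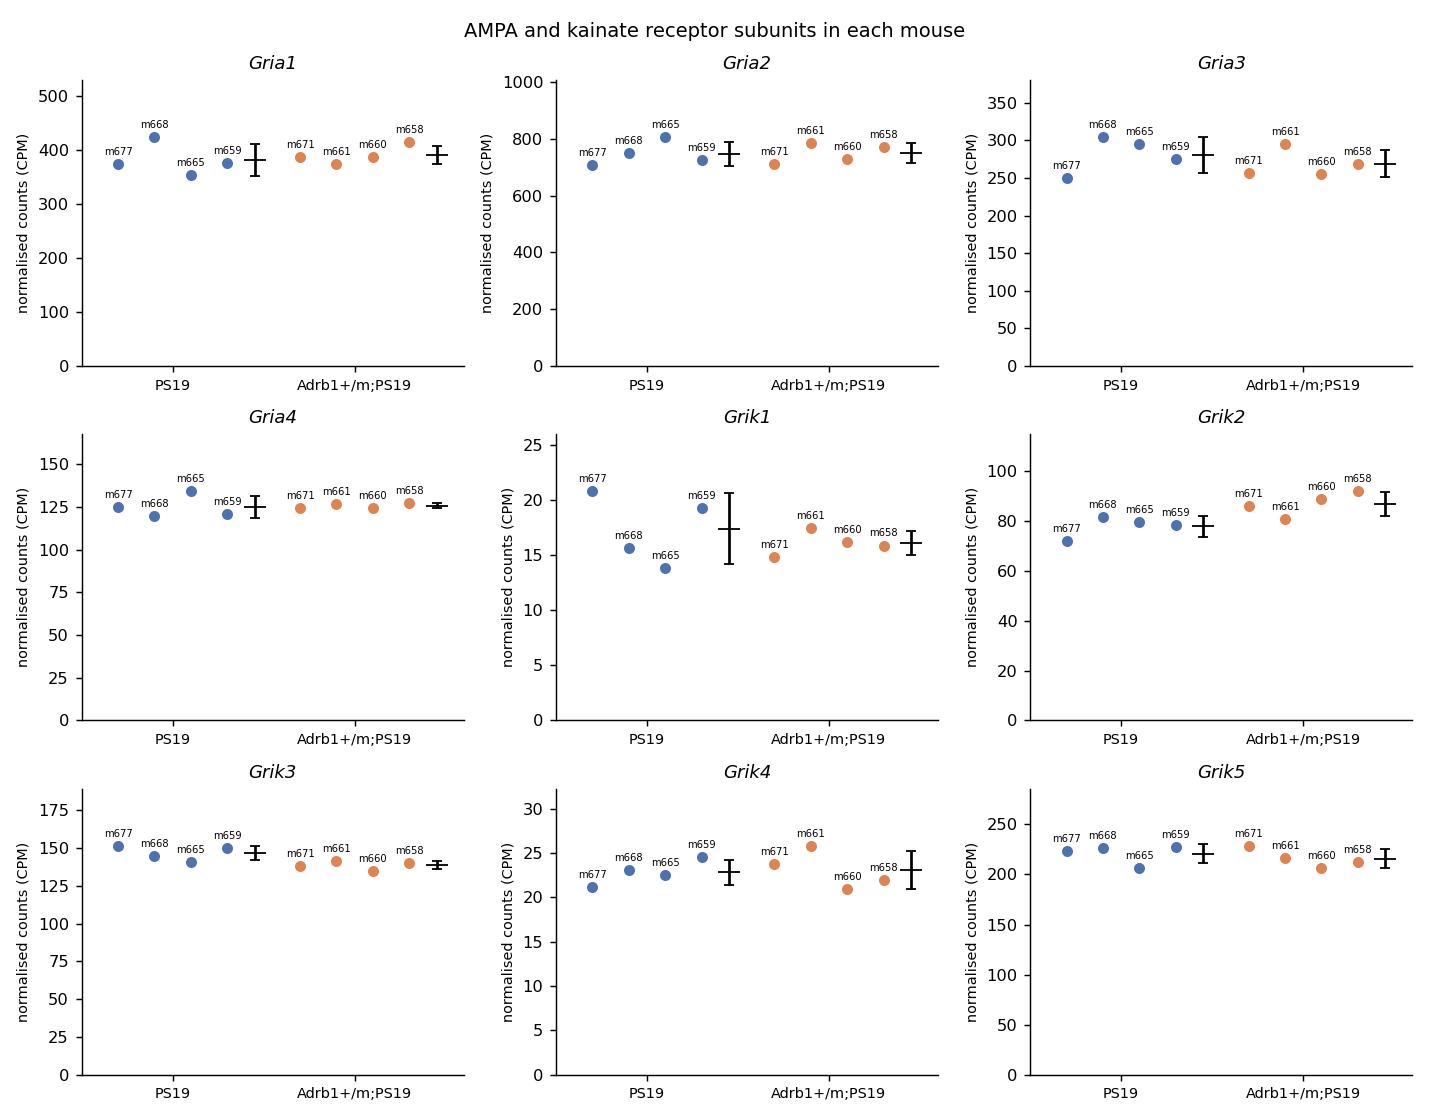
Normalised counts (CPM, y axes from 0) of the 9 subunit genes, 1 point per mouse, with the mean and SD of each genotype as a bar beside its 4 points. The genotypes overlap in all 9 panels. In 3 of 4 Adrb1+/m;PS19 mice Grik2 lies above, and Grik3 below, every PS19 mouse.

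Among the kainate subunits, Grik2 was higher in Adrb1+/m;PS19 mice. Grik2 (ENSMUSG00000056073, chromosome 10, 49094833 to 49788766) encodes GluK2, a main channel-forming kainate subunit of the forebrain. It had 72.1, 81.8, 79.8 and 78.4 CPM in PS19 mice m677, m668, m665 and m659. It had 86.0, 80.9, 88.9 and 91.9 CPM in Adrb1+/m;PS19 mice m671, m661, m660 and m658. Mice m671, m660 and m658 lay above every PS19 mouse, while m661 lay within the PS19 range, just under m668. The means were 78.0 ± 4.20 CPM in PS19 and 86.9 ± 4.69 CPM in Adrb1+/m;PS19 mice (SD, n = 4 each). This was a log2 fold change of 0.16 (SE 0.06), or 1.11-fold with a 95% interval of 1.02 to 1.22. The unadjusted p was 0.0207 and the adjusted p 0.9996 in edgeR's quasi-likelihood test after Benjamini-Hochberg adjustment over the 17195 genes.

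Grik2 was the 1 member of 9 with an unadjusted p under 0.05 (11.1% of the members, against 2.80% of all genes tested in either direction and 1.42% higher), and a single gene of 9 gives no share that can be set apart from this background. The unadjusted p of Grik2 was between 0.0095 and 0.069 over 13 alternatives. It was above 0.05 when 1 of 3 mice was left out, at a log2 fold change of 0.12 without m677, 0.15 without m660 and 0.13 without m658. The Grik2 share of the kainate family was 8.26% ± 0.597 in PS19 and 9.37% ± 0.673 in Adrb1+/m;PS19 mice (SD, n = 4 each).

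Grik3 and Grik1, the other genes for subunits that form channels by themselves, had lower means in Adrb1+/m;PS19 mice, neither with an unadjusted p under 0.05. Grik3 (ENSMUSG00000001985, chromosome 4, 125490700 to 125714173) had 151, 145, 141 and 149.9 CPM in PS19 mice and 138, 142, 135 and 140.0 in Adrb1+/m;PS19 mice. All but 1 of the Adrb1+/m;PS19 values lay below every PS19 value, and m661 lay between m665 and m668. Its log2 fold change was -0.08 (SE 0.05), with an unadjusted p of 0.111 in edgeR's quasi-likelihood test. Grik1 (ENSMUSG00000022935, chromosome 16, 87895900 to 88290265) had 20.8, 15.7, 13.8 and 19.3 CPM in PS19 mice and 14.9, 17.5, 16.2 and 15.9 in Adrb1+/m;PS19 mice. It was the least counted and most variable member, with a coefficient of variation of 13.9% over the 8 mice, and its PS19 values surrounded all the others. Its log2 fold change was -0.11 (SE 0.12), with a 95% interval of 0.774 to 1.12-fold.

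Grik4 and Grik5, which encode the subunits of high agonist affinity, did not separate the genotypes. Grik5 (ENSMUSG00000003378, chromosome 7, 25009849 to 25072346) had 223, 226, 207 and 227 CPM in PS19 mice and 229, 217, 206 and 212 in Adrb1+/m;PS19 mice. Grik4 (ENSMUSG00000032017, chromosome 9, 42518135 to 42944493) had 21.2, 23.1, 22.5 and 24.6 CPM in PS19 mice and 23.8, 25.8, 20.9 and 22.0 in Adrb1+/m;PS19 mice. The genotypes overlapped throughout for both genes. The log2 fold changes were -0.03 (SE 0.05) for Grik5 and 0.02 (SE 0.09) for Grik4, with unadjusted p of 0.552 and 0.819 in edgeR's quasi-likelihood test.

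Taking the 9 members as a list, 5 had a log2 fold change above 0 and 4 below, with a median of 0.0019, beside 0.00046 over all genes tested. The median absolute log2 fold change was 0.03, beside 0.07 over all genes tested. The biological coefficient of variation was 5.84 to 11.8% with a median of 6.61%, beside a median of 10.1% over all genes tested. None of the 9 members had genotypes that did not overlap, against 2.02% of all genes tested.

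Grik2 and Grik3 moved in opposite directions from mouse to mouse. Over the 8 mice their log2 normalised counts had a Pearson's r of -0.84 (2-sided exact permutation test, p = 0.00905) and a Spearman's rho of -0.83 (exact permutation test, p = 0.0154). Without the 2 mice farthest from the median of Grik2, m658 and m677, r was -0.87, and after each genotype's mean was taken out it was -0.62. Over the 36 pairs of members no correlation had an adjusted p under 0.05, and 4 had an unadjusted p under 0.05. The smallest adjusted p was 0.326 (exact permutation tests, Benjamini-Hochberg adjustment over 36 pairs), so the relation of Grik2 to Grik3 did not hold after correction.

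The ratio of Grik2 to Grik3 in CPM per kb, singled out after the values were seen and given without a test, was 0.322, 0.383, 0.383 and 0.354 in PS19 mice. It was 0.422, 0.387, 0.446 and 0.445 in Adrb1+/m;PS19 mice. The genotypes did not overlap in this ratio, though m661 lay next to m665 and m668. Another gene length multiplies the ratio by the same factor in every mouse, so it cannot change the overlap. The pair with the next largest r was Gria2 with Gria3, whose r was 0.74 (exact permutation test, p = 0.0449) and whose rho was 0.69 (exact permutation test, p = 0.0694). Centred on genotype this r was 0.78, and without the 2 mice farthest from the median of Gria2 it was 0.58. The values centred on genotype pool the variation within both genotypes. A correlation in each genotype by itself was not computed, since each holds 4 mice.

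**Figure D4:**
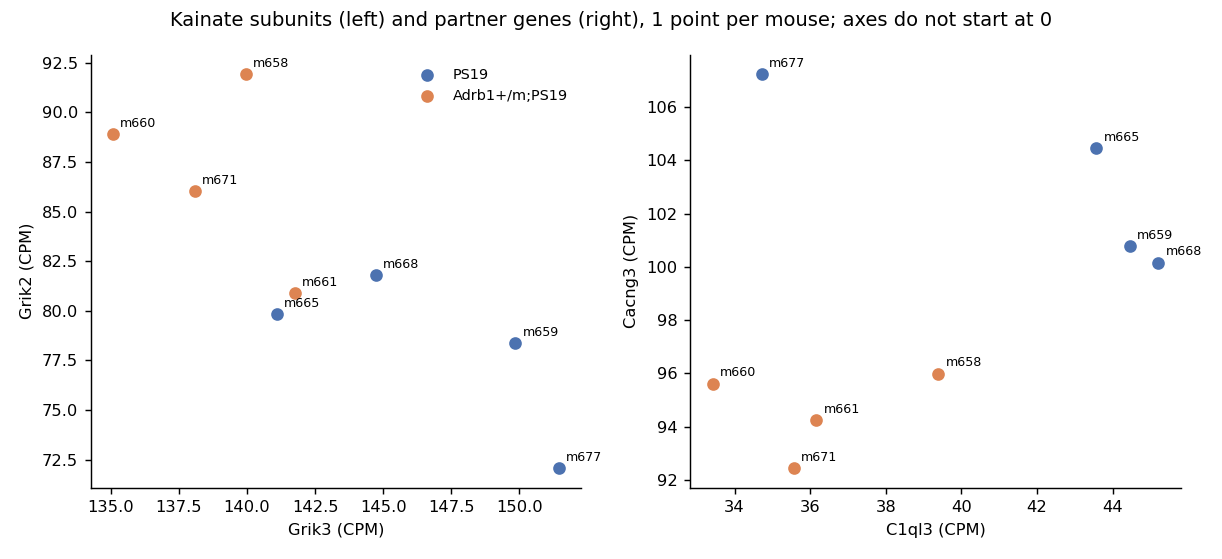
Normalised counts (CPM) of Grik2 against Grik3 (left) and of the partner genes Cacng3 against C1ql3 (right), 1 point per mouse, with axes that do not start at 0. Grik2 is higher where Grik3 is lower (r = -0.84), and all 4 Adrb1+/m;PS19 mice lie below every PS19 mouse for Cacng3. Of all genes tested, 2.02% had genotypes that did not overlap.

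The genes of proteins that assemble with the receptors showed 1 difference at the unadjusted threshold. Of 15 AMPA auxiliary subunit genes, 5 were higher and 10 lower, at a median of -0.02 on the log2 scale, and Cacng3 was the only 1 with an unadjusted p under 0.05 (1.37% of all genes tested were lower by this rule). Cacng3 (ENSMUSG00000066189, chromosome 7, 122670492 to 122769393) encodes the TARP γ-3, a close relative of stargazin that is found in the cerebral cortex. It had 107, 100.2, 104 and 101 CPM in PS19 mice m677, m668, m665 and m659, and 92.4, 94.3, 95.6 and 96.0 in Adrb1+/m;PS19 mice m671, m661, m660 and m658. All 4 Adrb1+/m;PS19 mice lay below every PS19 mouse. Cacng3 was the 1 gene of these 15 without overlap between genotypes, against 2.02% of all genes tested. The log2 fold change of Cacng3 was -0.13 (SE 0.05), with an unadjusted p of 0.0233 in edgeR's quasi-likelihood test. By the same edgeR test the unadjusted p was 0.0605 with no filter on low counts and 0.0654 without m677. The most abundant auxiliary genes per length, Cnih2 and Cacng7, encode a cornichon and the TARP γ-7. Their log2 fold changes were -0.02 (SE 0.08) and -0.0048 (SE 0.05), with signs that turned when single mice were left out.

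Of 5 genes for extracellular proteins that cluster glutamate receptors, C1ql3 alone had an unadjusted p under 0.05 (1.37% of all genes tested were lower by this rule). All 5 had a log2 fold change below 0, with a median of -0.20 beside 0.00046 over all genes tested. Their summed level overlapped, at 1077 to 1399 CPM in PS19 and 1028 to 1183 CPM in Adrb1+/m;PS19 mice. One of them, C1ql2, is also on the list of hippocampal markers and had only 14 to 109 counts. The 7 markers of cortical excitatory neurons had log2 fold changes below 0 as well, with a median of -0.14, and their part in these values was not tested. C1ql3 (ENSMUSG00000049630, chromosome 2, 13003457 to 13011806) encodes a secreted C1q-like synaptic protein. It had 34.7, 45.2, 43.6 and 44.5 CPM in PS19 mice and 35.6, 36.2, 33.4 and 39.4 in Adrb1+/m;PS19 mice. PS19 mouse m677 lay among the Adrb1+/m;PS19 mice, and the other PS19 mice lay above all of them. The log2 fold change was -0.22 (SE 0.09), with an unadjusted p of 0.0255 in edgeR's quasi-likelihood test. It was -0.30 without m677, and its unadjusted p was above 0.05 without m668, m665, m659 or m660.

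The neuronal pentraxin receptor gene Nptxr, whose product helps gather AMPA receptors at synapses, had 741, 921, 628 and 875 CPM in PS19 mice and 738, 636, 638 and 744 in Adrb1+/m;PS19 mice. Its lowest mouse and its 2 highest were all PS19. Its log2 fold change was -0.20 (SE 0.10), with an unadjusted p of 0.0672 in edgeR's quasi-likelihood test. That p fell under 0.05 with no filter on low counts, with DESeq2 and without m665 or m658. Nptx1, which encodes a secreted pentraxin, had a log2 fold change of -0.10 (SE 0.07).

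No gene passed the unadjusted threshold among 6 for AMPA receptor assembly and export, 8 for anchoring and trafficking, 2 kainate auxiliary subunits and 2 editing enzymes. Neto1 and Neto2 had log2 fold changes of 0.03 (SE 0.08) and 0.03 (SE 0.08). Adarb1, which encodes the enzyme that edits the Q/R site of Gria2, had 257 ± 9.50 CPM in PS19 and 264 ± 6.36 CPM in Adrb1+/m;PS19 mice (SD, n = 4 each), and its relative Adar had a log2 fold change of 0.03 (SE 0.06). Frrs1l and Abhd12, the most abundant genes of the assembly list per length, had log2 fold changes of -0.01 (SE 0.06) and 0.00080 (SE 0.06). Nsf, whose product binds GluA2, and Epb41l1, whose product links GluA1 to actin, had -0.04 (SE 0.05) and -0.02 (SE 0.04).

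Grid1, which encodes a delta receptor subunit of the same superfamily, did not pass the unadjusted threshold. It had 74.5, 77.2, 67.7 and 68.5 CPM in PS19 mice and 78.1, 78.7, 76.5 and 76.0 in Adrb1+/m;PS19 mice. The groups overlapped through m668 alone, and the other PS19 mice lay below every Adrb1+/m;PS19 mouse. The log2 fold change of Grid1 was 0.10 (SE 0.06), with an unadjusted p of 0.0867 in edgeR's quasi-likelihood test.

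**Figure D5:**
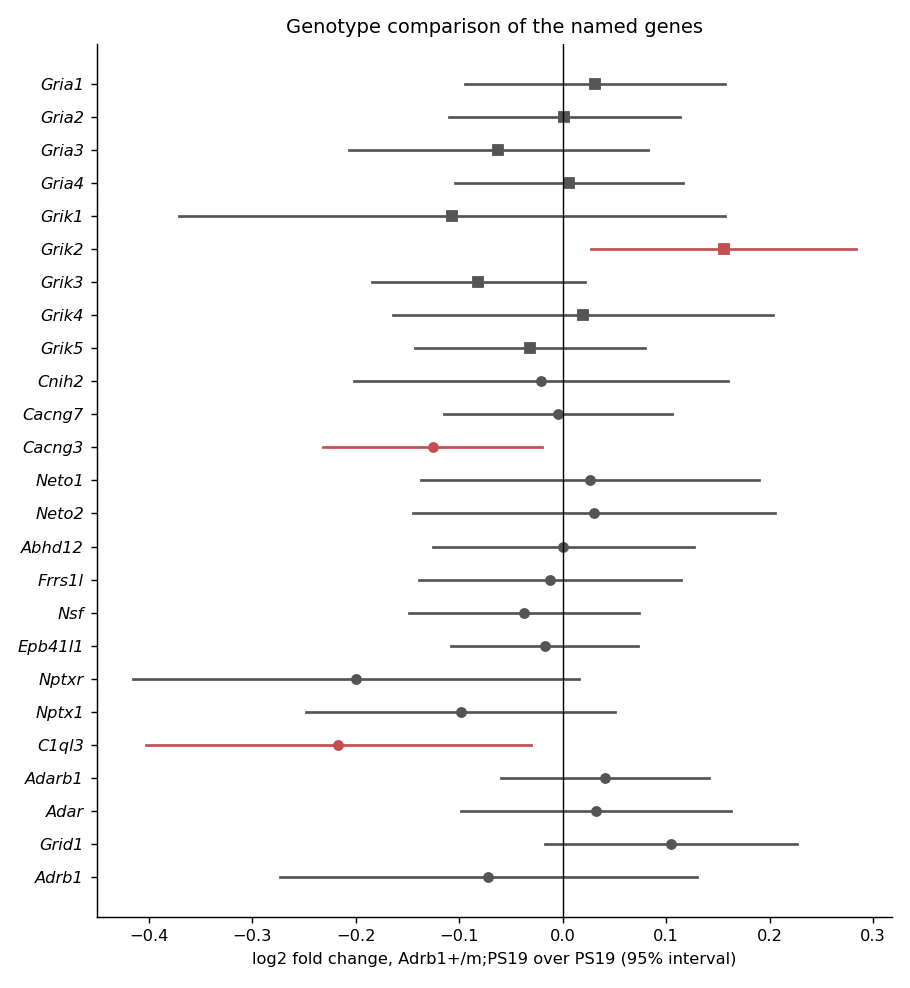
Log2 fold change of Adrb1+/m;PS19 over PS19 mice with its 95% interval, for the 9 subunit genes (squares) and 16 other genes, 1 of them Adrb1 (circles), with an unadjusted p under 0.05 in red. The red genes are Grik2 at 0.16, Cacng3 at -0.13 and C1ql3 at -0.22.

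Some markers of cell types also passed the unadjusted threshold, none of them with an adjusted p under 0.05 in edgeR's quasi-likelihood test. The part of these markers in the values of Grik2, Cacng3 and C1ql3 was not tested. All 7 cortical excitatory neuron markers were lower in Adrb1+/m;PS19 mice, 3 of them with an unadjusted p under 0.05 (1.37% of all genes tested were lower by this rule). Their summed level overlapped between genotypes, at 1508 to 1743 CPM in PS19 and 1356 to 1572 CPM in Adrb1+/m;PS19 mice. Of 7 interneuron markers, 5 were higher and 2 lower. Gad2 and Slc32a1 were higher with an unadjusted p under 0.05 (1.42% of all genes tested), while Vip was lower by this rule (1.37%). The interneuron sum overlapped, at 1054 to 1108 CPM in PS19 and 1065 to 1190 CPM in Adrb1+/m;PS19 mice. All 6 basal forebrain cholinergic markers were higher with an unadjusted p under 0.05 (1.42% of all genes tested). Single levels did not overlap between genotypes for 1 of the 6 (2.02% of all genes tested), and their summed level of 16.4 to 31.6 CPM in PS19 mice did not overlap with 32.9 to 46.2 CPM in Adrb1+/m;PS19 mice. All 7 striatal projection neuron markers were higher, none with an unadjusted p under 0.05. Their sums overlapped, at 769 to 1567 CPM in PS19 and 798 to 1735 CPM in Adrb1+/m;PS19 mice. No gene of any of these lists was at 0 in every mouse. Hippocampal (6 of 7 genes tested), thalamic, astrocyte, oligodendrocyte, oligodendrocyte precursor and microglial markers had sums that overlapped between genotypes, and none of their genes passed the unadjusted threshold.

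The sums and Grik2 can be set side by side for each mouse. Mouse m658 had the highest Grik2 level and the highest cholinergic sum, but m660, which came second for Grik2, had the lowest cholinergic sum of its genotype. The cortical excitatory sum was lowest in m660 and m658, at 1356 and 1403 CPM, and these were the mice with the most Grik2. Among PS19 mice, however, it was lowest in m677, at 1508 CPM, the mouse with the least Grik2. In m668, the PS19 mouse with the most Grik2, it was 1734 CPM. The interneuron sum was highest in m671, m658 and m660, at 1190, 1189 and 1126 CPM, which had Grik2 above every PS19 mouse. Next came m677 at 1108 CPM, with the least Grik2. The striatal sum was 769, 1567, 1131 and 831 CPM in PS19 mice m677, m668, m665 and m659. It was 1735, 798, 1198 and 1434 CPM in Adrb1+/m;PS19 mice m671, m661, m660 and m658. The highest striatal sums were in m671, m668 and m658, which are 3 of the 4 mice with the most Grik2, and the lowest was in m677, the mouse with the least. The part of any of these sums in the level of Grik2 was not tested.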

How the data were processed

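Cortical RNA of 8 mice was sequenced as paired-end libraries. The authors aligned clean reads to GRCm38 with HISAT2 2.0.5, counted them per Ensembl gene with featureCounts 1.5.0-p3 and deposited raw counts for 54532 genes. The strand and multiple-mapping settings are not given in the sources used here. The exons of no member overlap an annotated gene on the other strand, and 4 members overlap 1 small RNA gene each on their own strand.

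Genes were kept with filterByExpr, scaled with TMM factors and compared with glmQLFit and glmQLFTest of edgeR 4.0.16 in R 4.3.3 (2-sided, no covariate, Benjamini-Hochberg adjustment over 17195 genes). CPM used the TMM factors, and log2 CPM for correlations a prior count of 2. CPM per kb used the gene length of the deposited table, or the longest coding transcript of GENCODE. The standard error is the log2 fold change divided by the square root of F. Q/R stretches were read from the GRCm38 genome along GENCODE coding exons. Alternatives were DESeq2 1.42.0, limma-voom (limma 3.58.1), edgeR with the size factors of DESeq2, edgeR on all genes with 1 count, at least 10 counts in every mouse, and each mouse left out. The method was tested on simulated counts of 16953 genes. Of genes changed 1.25-fold there, 66.7% had an unadjusted p under 0.05 in edgeR's quasi-likelihood test and 27.3% an adjusted p under 0.05. For genes changed 2-fold the shares were 98.0% and 81.8%. Of unchanged genes there, 4.86% had an unadjusted p under 0.05 by the same test, beside 2.80% of all genes tested in the mice. The simulated shares therefore need not hold for these mice.

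The genes named were all members, Adrb1 and, from each receptor list, the 2 with the highest level per length and any with an unadjusted p under 0.05, except 1 gene that is not reported here. Genes that mark cell types were counted by list, and Slc17a7, Gad2, Slc32a1, Vip and C1ql2 were named after their values were seen. The members and lists were chosen with earlier results of these data known. A depth of 14653222 to 21223754 counts per mouse left a counting error of 5.82% for Grik1 and 0.867% for Gria2.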

Additional observations from a re-analysis of the deposited data

Results flagged for a closer look

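Of 50 sets of 4 mice examined for a mouse far from the others, 2 had one, and about 1 in 20 sets is expected to by chance. C1ql3 was lowest in PS19 mouse m677, at 34.7 CPM, while the other PS19 mice had 43.6 to 45.2 CPM. The gap was 0.843 of the range of the group. Adarb1 was lowest in Adrb1+/m;PS19 mouse m671, at 254.9 CPM, while the others of that genotype had 267 to 268 CPM, a gap of 0.940 of the range. PS19 mouse m677 also had the lowest Grik2 level of all mice, 72.1 CPM, and the highest Cacng3 level, 107 CPM.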

How the results depend on the processing

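No paired analysis was possible because replicates carry only a mouse name and no litter is given. With no filter beyond 1 count, 1366 genes had an unadjusted p under 0.05 in place of 481, and 66 had an adjusted p under 0.05 (smallest 3.08e-82) in place of 0. Without m661 there was 1 such gene and without m658 there were 2, and under the other alternatives there was none. No member and no gene named by the rule was among them. The number of members with an unadjusted p under 0.05 lay between 0 and 1 when each mouse was left out in turn, and was 0 without m677, m660 or m658. The log2 fold change of Grik2 was then 0.12 to 0.19, that of Cacng3 -0.14 to -0.11 and that of C1ql3 -0.30 to -0.18. The cause of these shifts was not tested.

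The direction of small differences turned when mice were left out, with ranges of -0.0039 to 0.085 for Gria1, -0.023 to 0.041 for Gria2, -0.013 to 0.043 for Gria4 and -0.039 to 0.065 for Grik4. The same held for Cnih2 (-0.093 to 0.043), Cacng7 (-0.030 to 0.026), Neto1 (-0.028 to 0.082), Neto2 (-0.020 to 0.096) and Abhd12 (-0.048 to 0.039). It also held for Frrs1l (-0.065 to 0.033) and Adar (-0.018 to 0.074). Abhd12 was at -0.00057 with DESeq2 and -0.00066 with limma-voom. Of the members and the other genes named by the rule, none but Abhd12 changed direction under a setting that kept all 8 mice. The genes named after their values were seen were not compared across these settings.

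Shares within a family moved with the length used. With the longest coding transcript, a setting chosen after the data were seen, they were 32.0% for Gria1, 33.1% for Gria2, 24.3% for Gria3, 10.6% for Gria4, 5.03% for Grik1, 17.5% for Grik3, 4.28% for Grik4 and 63.6% for Grik5. With counts not divided by length they were 25.2% for Gria1, 48.8% for Gria2, 8.17% for Gria4, 17.1% for Grik2, 29.5% for Grik3, 4.76% for Grik4 and 45.2% for Grik5. Both change the divisor alone, so they leave the genotype comparison of each gene as it was, but they weight sums and shares differently. The AMPA sum averaged 159.6 CPM per kb in PS19 and 159.9 in Adrb1+/m;PS19 mice with the table's length. With the longest coding transcript it averaged 218.0 in PS19 and 217.4 in Adrb1+/m;PS19 mice. The genotypes overlapped in this sum with either length. With 4 mice per genotype, the 95% interval of a member was between 0.774 and 1.22-fold, and smaller differences than these intervals could not be resolved.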

Other observations

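Several partner genes were more abundant per length than any subunit gene. Over the 8 mice Cnih2 had 148 CPM per kb and Nptxr 143, Abhd12 100.3, Nsf 95.3 and Cacng7 70.2, beside 63.9 for Gria1, with the gene lengths of the deposited table. Grid1, a delta receptor gene, had 12.5 CPM per kb, between Grik3 at 15.9 and Grik2 at 6.23.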
